A study of Mus musculus with 6 samples.

Results

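The genes examined here encode enzymes of cholesterol synthesis and the proteins that control them through the sterol regulatory element-binding proteins (SREBPs). Another 4 encode proteins of sterol transport or of lipoprotein receptor degradation. All were chosen by name, with earlier results of these data known. Each of 27 sterol pathway symbols was matched to 1 of the 53801 Ensembl gene identifiers counted. All 27 passed the filter on low counts that left 14531 genes for testing. Control is a group of 3 libraries from the mouse pre-osteoblast line MC3T3-E1, infected with a lentivirus carrying a scrambled non-silencing hairpin. The Hdac4-knockdown group is 3 libraries of the same line infected with a lentivirus carrying an Hdac4 hairpin (Hdac4-shRNA in the labels). Both groups carried the same vector with ZsGreen1 and a puromycin marker, and both were kept in 5 μg/ml puromycin for 7 days. The labels describe 3 independent RNA samples per group but no separate infections, so p-values measure the spread between these samples. Each group is 1 hairpin in 1 cell line, so an effect of Hdac4 and an effect of this hairpin or infection cannot be told apart.

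Cholesterol is built from acetyl-CoA through mevalonate, isoprenoid diphosphates, squalene and lanosterol. When sterols are scarce in the endoplasmic reticulum, Scap carries the SREBPs to the Golgi, where they are cleaved into transcription factors that switch on the genes of synthesis. When sterols are plentiful, Insig proteins hold Scap in place, and oxysterols activate the liver X receptors (LXRs), which switch on genes of sterol export. In osteoblasts the same pathway supplies membrane cholesterol to dividing cells and isoprenoid anchors to small GTPases.

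The libraries held 29096544 to 31651826 counts on genes. Hdac4, the targeted gene, was at 40.7, 40.2 and 39.9 CPM (counts scaled to a common library size) in Control libraries and at 30.7, 28.8 and 29.5 CPM in Hdac4-knockdown libraries, 73.6% of the Control level (log2 fold change -0.44, SE 0.057, adjusted p = 8.98e-07). The cells held high Col1a1 and Spp1 counts, but Alpl, Bglap and Ibsp, markers of mature osteoblasts, were at or near 0 in both groups. The summed level of the 8 osteoblast markers was 4768 to 4781 CPM in Control and 21428 to 22266 CPM in Hdac4-knockdown libraries. The rise lay mostly in Col1a1 (means of 338 and 11015 CPM) and Col1a2 (1213 and 8572 CPM). Of the 5 tested markers, 4 were called higher, beside 38.0% of all genes tested. The other, Spp1, was called lower (3154 and 2046 CPM), beside 37.1% of all genes. Runx2 was called higher, but its groups overlapped (69.9 and 79.5 CPM). Of 7 adipocyte markers, Adipoq, Plin1, Cidec and Lep were at or near 0 and only Cd36 of the 2 tested was called higher, and the sums were 2.64 to 2.88 and 12.5 to 13 CPM. The 6 macrophage markers summed to 1.6 to 2.72 and 2.84 to 3.13 CPM, the 4 endothelial markers to 0.262 to 0.421 and 2.81 to 3.16 CPM, the 4 epithelial markers to 0.491 to 0.969 and 0.565 to 0.905 CPM, and the 4 hepatocyte markers to at most 0.0327 and 0.226 CPM. The part of this shift in bone and other markers in the results on sterol genes was not tested.

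SREBPs bind sterol regulatory elements (SREs), usually beside a CCAAT box bound by NF-Y. RefSeq promoter windows (GRCm38.p6, 250 bases before to 50 after the start site) were held for 22 of the 27 genes. Fdps, Fdft1, Sqle, Stard4 and Abcg1 had no entry. The SRE core TCACNCCA was searched on both strands, as was a stricter form, TCACCCCA with A before it and C after it, which also matches the core. The core was found in windows of 3 of the 22 genes, Hmgcs1, Msmo1 and Srebf2, against 4.57% of 10372 tested genes with a window. All 3 were called lower in Hdac4-knockdown libraries, as were 12 of the 22 genes, beside 37.1% of all genes tested. A link between the core and the falls was not tested. The stricter form, and the E-box TCACGTGA, were found in 0 of the 22, against 0.0578% and 2.15% of the tested genes. The stretches around the core of Hmgcs1, an early enzyme of the route, and Srebf2, the main factor that switches it on, are shown. The stretch of Msmo1 was left out because it overlaps an annotated exon. Capitals mark the SRE core and the CCAAT box, read as ATTGG on this strand. Neither of the stretches shown overlaps an annotated gene of GENCODE M21. Positions are counted from the start site, with bases before it negative.
Hmgcs1, chr13:119690174-119690261, plus strand, positions -177 to -90: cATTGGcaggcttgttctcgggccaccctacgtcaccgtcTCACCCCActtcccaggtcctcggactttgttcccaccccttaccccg
Srebf2, chr15:82147067-82147154, plus strand, positions -202 to -115: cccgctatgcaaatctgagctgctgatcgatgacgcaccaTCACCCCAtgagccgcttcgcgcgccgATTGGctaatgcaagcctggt
Both genes carry the core letters TCACCCCA, starting at -137 in Hmgcs1 and at -162 in Srebf2. CCAAT was found in windows of 19 of the 22 genes, against 43.1% of tested genes, and the Sp1 box GGGCGG in 21, against 67.5%. CCAAT was in windows of 5 of the 5 genes with a window that rose, 10 of the 12 that fell and 4 of the 5 that were not called. The LXR pattern known as DR4, AGGTCA repeated in the same direction after a spacer NNNN, was found in 0 of the 22, against 0.00964% of tested genes. These are matches of letters within short windows and say nothing of binding.

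Most sterol pathway genes were lower in Hdac4-knockdown cells. Of the 27, 16 fell, 5 rose and 6 were not called (adjusted p below 0.05 and log2 fold change beyond 0.05 in size). The share that fell was 59.3%, beside 37.1% of all genes tested, and the share that rose was 18.5%, beside 38.0%. Since 75.1% of all genes were called in one direction or the other, a call alone says little, and the sizes matter more. The counts by step or group given below are to be read beside these shares of all genes. A fall of more than 0.5 on the log2 scale was seen in 14 of the 27 (51.9%), beside 19.8% of all genes, whereas a rise of that size was seen in 1, Mylip, beside 24.6%. The median log2 fold change of the 27 was -0.56, beside 0.01 for all genes tested. The 3 libraries of one group lay wholly below or above the 3 of the other for 16 and 5 genes, and the groups overlapped for 6 (76.8% of all genes did not overlap). The Control libraries gave the 27 genes 1404, 1406 and 1408 CPM in sum, and the Hdac4-knockdown libraries 971, 974 and 976 CPM. In a bulk sample, fewer cells using a gene and less RNA per cell cannot be told apart.

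**Figure D1:**
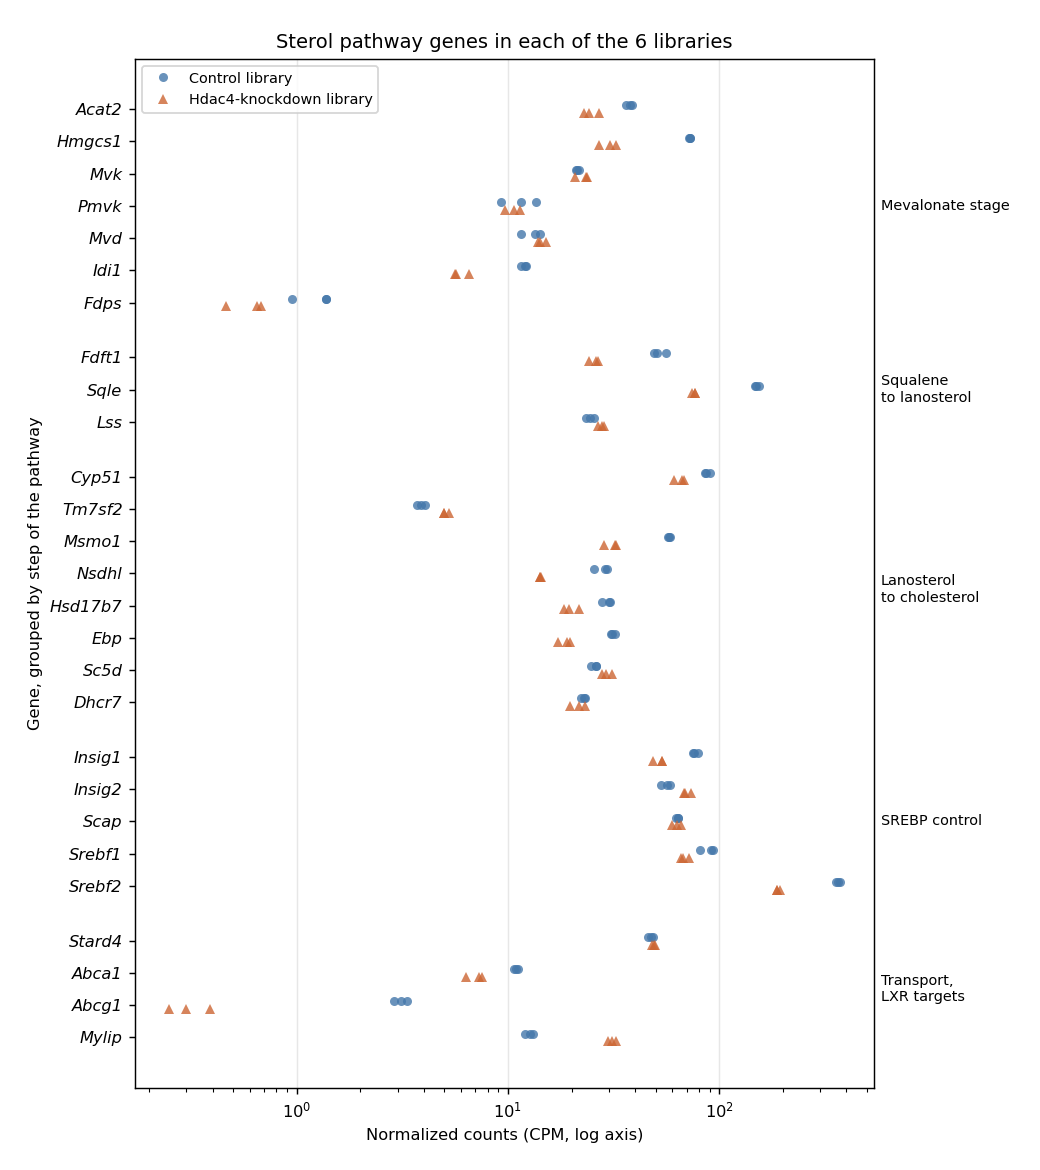
Normalized counts (CPM, log axis) of the 27 genes, grouped by step, with 1 point for each of the 3 Control (circles) and 3 Hdac4-knockdown (triangles) libraries. The triangles lie wholly to the left of the circles for 16 genes and wholly to the right for 5.

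In the mevalonate stage, 4 of 7 genes fell and none rose. Hmgcs1 (chromosome 13, 119690379 to 119708260), which encodes the synthase that makes HMG-CoA, fell most among the 18 enzymes. It was at 72.7, 72.6 and 72.3 CPM in Control libraries and at 32.6, 26.9 and 30.3 CPM in Hdac4-knockdown libraries. The Control values lay within 1 CPM of each other, and every Hdac4-knockdown value was below them. The mean was 41.3% of Control (log2 fold change -1.28, SE 0.0618, adjusted p = 2.91e-13). It shares 12.1% of its exon bases with Gm48342 on the other strand. Acat2, the cytosolic thiolase of the step before, was at 38.5, 38 and 36.2 CPM and then at 24.2, 23 and 26.9 CPM. Its log2 fold change was -0.60 (SE 0.0664, adjusted p = 9.71e-08). Of its transcript stretches of 50 bases, 39.1% also occur in transcripts of its neighbour Acat3, which had 4 to 19 reads in any library. Some of these stretches also occur in Tcp1. That gene had 14688, 14392 and 13626 reads in Control and 11077, 11544 and 11150 in Hdac4-knockdown libraries. The part of shared stretches in the fall of Acat2 was not tested.

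The next 3 enzymes, which turn mevalonate into isopentenyl diphosphate, were not called. Mvk, mevalonate kinase, was at 21.3, 21.1 and 21.6 CPM in Control and at 20.7, 23.6 and 23.3 CPM in Hdac4-knockdown libraries. Its log2 fold change was 0.08, with a 95% interval from -0.07 to 0.23. Pmvk, the second kinase, had a log2 fold change of -0.10 (interval -0.35 to 0.14), with Control values from 9.25 to 13.5 CPM that enclosed all 3 Hdac4-knockdown values. Mvd, the decarboxylase, had a log2 fold change of 0.15 (interval -0.04 to 0.34). The intervals of Mvk, Pmvk and Mvd all lie above the -1.28 of Hmgcs1 and allow rises of 0.14 to 0.34. Mvd passed the threshold as higher with library size alone (log2 fold change 0.21, adjusted p = 0.0455) and with upper quartile normalization (0.24, 0.0232), and Mvk with upper quartile normalization (0.17, 0.0378).

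Idi1, the isomerase that makes dimethylallyl diphosphate, fell. It was at 12, 11.5 and 12.2 CPM in Control and at 6.56, 5.65 and 5.61 CPM in Hdac4-knockdown libraries, 50% of the Control level (SE 0.103 on the log2 scale, adjusted p = 3.96e-08). Of its stretches of 50 bases, 25.3% also occur in other genes, 4 of them pseudogenes. Fdps, farnesyl diphosphate synthase, had only 29, 41 and 39 reads in Control and 21, 21 and 14 in Hdac4-knockdown libraries. Its log2 fold change was -1.03 with a wide interval, from -1.69 to -0.37 (adjusted p = 0.00648). Of its exon bases, 26.7% are shared on the same strand with Gm43738, which was counted 0 times in every library, and 7 annotated pseudogenes share stretches of 50 bases with it. Its count is uncertain for that reason, and its level cannot be set beside those of the other enzymes.

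From squalene to lanosterol, the genes of the first 2 enzymes fell and that of the third did not. Fdft1, squalene synthase, was at 56.2, 49.2 and 51 CPM in Control and at 24.3, 26.2 and 26.7 CPM in Hdac4-knockdown libraries (log2 fold change -1.02, SE 0.0635, adjusted p = 1.71e-11). It shares 18.3% of its exon bases with Ctsb on the other strand, and without strand information the reads of the pair cannot be told apart. Sqle, squalene epoxidase (chromosome 15, 59315077 to 59331192), had the highest level per kilobase among the enzymes in Control, though not after knockdown, and was at 148, 154 and 149 CPM in Control and at 74.3, 76.4 and 76.5 CPM in Hdac4-knockdown libraries. It fell to 50.3% of Control (log2 fold change -0.99, SE 0.0429, adjusted p = 4.64e-14). Lss, lanosterol synthase, instead rose slightly, from 23.5, 24.5 and 25.5 CPM to 26.7, 27.8 and 28.4 CPM. The groups did not overlap, but the step was small: a log2 fold change of 0.17 (interval 0.04 to 0.31, adjusted p = 0.02). That call was lost without Control replicate 1 (0.14, adjusted p = 0.111), without Control replicate 2 (0.16, 0.0596), without Hdac4-knockdown replicate 3 (0.16, 0.063) and with no filter beyond 1 count (0.15, 0.1).

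Of the 8 enzymes that turn lanosterol into cholesterol, 5 fell, 2 rose and 1 was not called. Cyp51, the lanosterol demethylase, fell least of the 5. It was at 90.1, 85.6 and 87 CPM in Control and at 66.4, 61.4 and 67.8 CPM in Hdac4-knockdown libraries (log2 fold change -0.43, SE 0.0497, adjusted p = 2.23e-07). Msmo1 and Nsdhl, which with Hsd17b7 strip the methyl groups from the ring, fell more. Msmo1, the methylsterol oxidase, went from 58.7, 57 and 57.7 CPM to 32.5, 28.6 and 32.2 CPM (log2 fold change -0.89, SE 0.0586, adjusted p = 3.81e-11). Nsdhl, the X-linked sterol dehydrogenase, went from 28.7, 25.6 and 29.5 CPM to 14.4, 14.2 and 14.2 CPM (log2 fold change -0.97, SE 0.0741, adjusted p = 4.42e-10). For both genes the gap between groups was several times the spread within either. Hsd17b7, the ketosteroid reductase of the same complex, was at 67.3% of Control (log2 fold change -0.57, adjusted p = 8.61e-07), and Ebp, the sterol isomerase, at 59.5% (-0.75, adjusted p = 6.36e-09).

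The last 2 enzymes of the route did not follow. Sc5d, the sterol desaturase, was at 26, 26 and 24.6 CPM in Control and at 27.8, 29.1 and 31.2 CPM in Hdac4-knockdown libraries. It rose by a log2 fold change of 0.20 (interval 0.06 to 0.34, adjusted p = 0.00988), a call lost without Control replicate 3 (0.16, adjusted p = 0.0675) and without Hdac4-knockdown replicate 3 (0.16, 0.0588). Dhcr7, the final reductase, was at 23.2, 22.1 and 22.9 CPM and then at 19.6, 23.1 and 21.6 CPM, with a log2 fold change of -0.09 (interval -0.24 to 0.07). The groups overlapped for Dhcr7, and the interval leaves out the size of the falls of Msmo1 and Nsdhl. Tm7sf2, a sterol reductase that acts after Cyp51, was scarce, at 4.06, 3.71 and 3.86 CPM in Control. It rose to 4.98, 4.96 and 5.28 CPM (log2 fold change 0.39, SE 0.134, adjusted p = 0.0134), and it shares 12.1% of its exon bases with Vps51. Lbr, the lamin B receptor, has the same reductase activity as Tm7sf2 and stands on a list of related genes described below. Per kilobase it was the more abundant of the pair in Control, at 15.6 against 0.88 CPM per kb, and it fell from 74.4 ± 0.919 to 41.6 ± 3.02 CPM (SD, n = 3).

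Across the 18 enzymes, 11 fell (61.1%, beside 37.1% of all genes tested), 3 rose (16.7%, beside 38.0%) and 4 were not called. Their median log2 fold change was -0.59. Their summed level was 694, 674 and 679 CPM in the Control libraries and 442, 434 and 453 CPM in the Hdac4-knockdown libraries, so the groups did not overlap. The falls were thus spread over the early, middle and late steps, with Mvk, Pmvk, Mvd, Lss, Tm7sf2, Sc5d and Dhcr7 as the 7 enzymes that were not lower by the test.

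**Figure D2:**
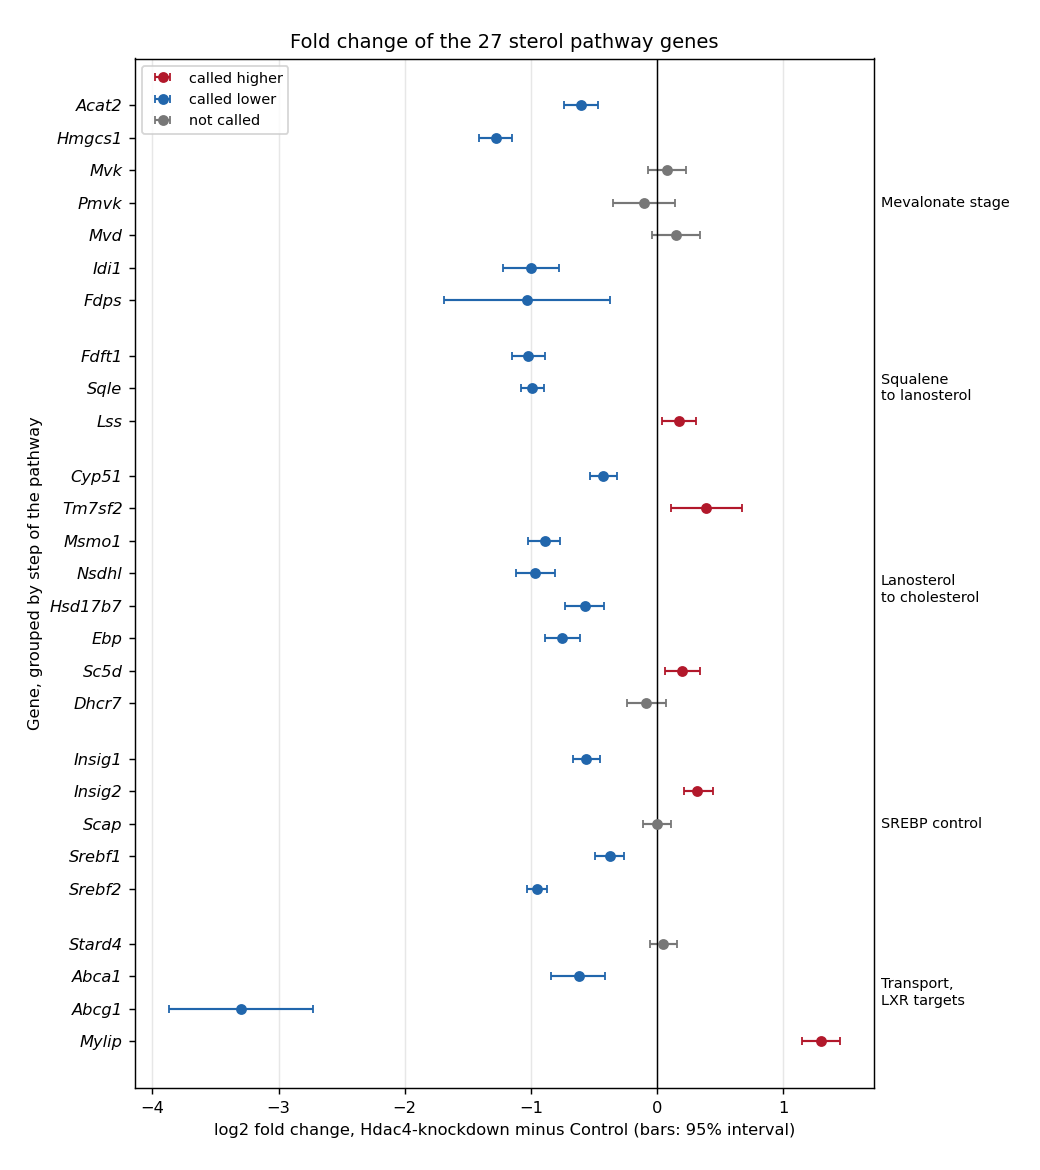
Log2 fold change of each of the 27 genes (Hdac4-knockdown minus Control, edgeR fit), grouped by step, with the 95% interval as bars. The 16 genes called lower run from -0.37 for Srebf1 to -3.30 for Abcg1, and the 5 called higher from 0.17 for Lss to 1.30 for Mylip.

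Among the 5 genes of SREBP control, 3 fell, 1 rose and 1 was not called. Srebf2 (chromosome 15, 82147181 to 82205379), which encodes SREBP2, the main factor for cholesterol synthesis, had the highest level per kilobase of all 27 genes. It was at 357, 373 and 366 CPM in Control and at 188, 193 and 187 CPM in Hdac4-knockdown libraries. No Hdac4-knockdown library came near the Control range, and the mean was 51.9% of Control (log2 fold change -0.95, SE 0.0388, adjusted p = 1.95e-14). Srebf1, which encodes the SREBP1 forms that act mainly on fatty acid genes, was at 81.2, 93.4 and 91 CPM and then at 65.9, 71.8 and 67.3 CPM. Its fall was smaller (log2 fold change -0.37, SE 0.0553, adjusted p = 5.35e-06). Srebf2 was 4.40, 3.99 and 4.02 times as often counted as Srebf1 in the Control libraries and 2.86, 2.68 and 2.78 times in the Hdac4-knockdown libraries. Every Hdac4-knockdown ratio was below every Control ratio, and a two-sided exact permutation test gave p = 0.1, below which 6 libraries cannot go.

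Scap, which escorts the SREBPs, was at 63.6, 62.1 and 63.5 CPM in Control and at 63.3, 66.1 and 59.6 CPM in Hdac4-knockdown libraries. Its log2 fold change was 0.00 in size, with an interval from -0.11 to 0.11, which leaves out the changes of the other 4 genes of this group. It shares 13.2% of its exon bases with 5830462I19Rik on the other strand.

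The Insig paralogs went in opposite directions. Insig1 (chromosome 5, 28071363 to 28078662), the form that SREBPs themselves induce, was at 75.2, 75.9 and 79.2 CPM in Control and at 53.7, 48.7 and 53.8 CPM in Hdac4-knockdown libraries (log2 fold change -0.56, SE 0.0524, adjusted p = 9.23e-09). Insig2 (chromosome 1, 121304353 to 121332589), the paralog that SREBPs do not induce, was at 58.6, 53.2 and 56.7 CPM and then at 68.1, 73.9 and 68.8 CPM (log2 fold change 0.32, SE 0.0531, adjusted p = 1.82e-05). Within each library, Insig2 reads per Insig1 read numbered 0.779, 0.7 and 0.716 in Control and 1.27, 1.52 and 1.28 in Hdac4-knockdown libraries. Insig1 was thus the more often counted paralog in every Control library and Insig2 in every Hdac4-knockdown library. Per kilobase of exon, the order was also turned, with Insig1 at 24.8 and Insig2 at 16.2 CPM per kb in Control, and at 16.8 and 20.2 CPM per kb after knockdown.

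The 4 genes of transport and LXR response moved apart. Abcg1 (chromosome 17, 31057675 to 31117988), a sterol exporter and LXR target, showed the largest change of the 27. It had 95, 99 and 82 reads in Control libraries and 12, 8 and 9 reads in Hdac4-knockdown libraries. Its level fell from 3.1 ± 0.216 to 0.312 ± 0.0707 CPM (SD, n = 3), or 10.1% of Control, a log2 fold change of -3.30 (interval -3.87 to -2.73, adjusted p = 1.55e-09). The counts are small, and the gene drops out where every library must hold 10 counts or more. Abca1, the exporter that loads sterol onto apolipoprotein A-I and also an LXR target, was at 10.9, 11.1 and 10.7 CPM and then at 7.27, 7.57 and 6.35 CPM. Its log2 fold change was -0.62 (SE 0.102, adjusted p = 1.74e-05).

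Mylip (chromosome 13, 45389742 to 45412022), a ubiquitin ligase that marks lipoprotein receptors for degradation, is an LXR target as well but rose. It was at 12.1, 12.7 and 13.2 CPM in Control and at 32.6, 31.1 and 29.8 CPM in Hdac4-knockdown libraries. That is 2.46 times the Control level (log2 fold change 1.30, SE 0.0718, adjusted p = 2.48e-12), and no other of the 27 rose by over 0.5. Mylip reads per Abca1 read numbered 1.11, 1.15 and 1.23 in Control and 4.49, 4.11 and 4.69 in Hdac4-knockdown libraries. Stard4, a soluble carrier that moves cholesterol between membranes, was at 48.5, 47.4 and 45.9 CPM and then at 49.7, 48 and 49.1 CPM, with a log2 fold change of 0.05 (interval -0.06 to 0.16). With upper quartile normalization Stard4 passed the threshold as higher (0.14, adjusted p = 0.0214).

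Ratios within a library do not depend on how libraries are scaled to each other. Beside the ratios above, Lss reads per Sqle read rose from 0.159, 0.159 and 0.171 in Control to 0.359, 0.364 and 0.371 in Hdac4-knockdown libraries. Sc5d reads per Hmgcs1 read rose from 0.358, 0.358 and 0.340 to 0.851, 1.08 and 1.03, and Dhcr7 reads per Hmgcs1 read from 0.320, 0.304 and 0.317 to 0.599, 0.860 and 0.714. Srebf2 reads per Scap read fell from 5.62, 6.01 and 5.76 to 2.98, 2.91 and 3.14. For each of the 7 ratios computed, no Hdac4-knockdown value fell within the Control range. The exact permutation p was 0.1 for each, before any adjustment over the 7, and could not be lower with 3 libraries against 3. The pairs were picked after the fold changes were seen, so these values are a description.

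**Figure D3:**
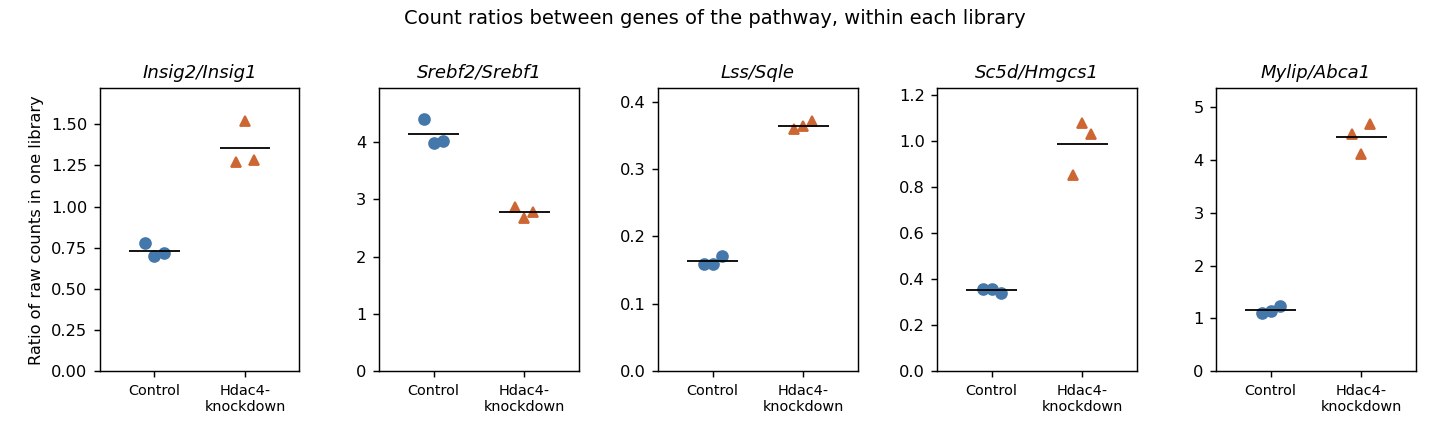
Ratio of raw counts of 2 genes in each library, for 5 pairs, with 3 Control (circles) and 3 Hdac4-knockdown (triangles) libraries and each group's mean as a bar. The groups do not overlap in any of the 5 panels, and Insig2/Insig1 crosses from below 1 to above 1.

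Levels of different genes can be compared only per length of exon, and only roughly. The length counts all annotated exon bases, also those shared with other genes (18.3% for Fdft1, 13.2% for Scap, 12.1% for Hmgcs1 and for Tm7sf2). The part of shared bases in the order was not tested. In Control libraries the highest levels were those of Srebf2 (50.9 CPM per kb), Sqle (27.2), Insig1 (24.8) and Cyp51 (19.8), and the lowest those of Tm7sf2 (0.88), Abcg1 (0.424) and Fdps (0.292, with the limit given above). In Hdac4-knockdown libraries Srebf2 was still first (26.4 CPM per kb), Insig2 was second (20.2) and Sqle stood at 13.7. Hmgcs1 moved from place 6 to place 14 of 27, and Mylip from place 20 to place 8. The order is a description, and places next to each other often differ by less than the spread between libraries.

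Genes near the pathway were described by 5 lists, with 79 genes tested under the same thresholds. The lists were drawn from general knowledge but with earlier results of these data known, so their shares and medians are a description. Over the 5 lists, 28 genes rose and 36 fell, and each list's counts are to be read beside the 38.0% of all genes tested that rose and the 37.1% that fell. The list of other synthesis and isoprenoid enzymes had 15 of 16 genes tested, of which 8 fell (53.3%) and 3 rose (20%), with a median log2 fold change of -0.28. Lbr fell by 0.84 on the log2 scale (adjusted p = 4.23e-11). Rabggta, a subunit of the enzyme that attaches geranylgeranyl groups to Rab proteins, fell by 0.83 (adjusted p = 2.87e-09), and Tmem97, a sterol-responsive membrane protein, by 0.70 (adjusted p = 1.11e-08).

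The list of SREBP cleavage and sterol-regulated degradation had 6 of 16 genes lower, 3 higher and 7 not called, and a median of -0.01. The 37.5% that fell were near the 37.1% of all genes, and the 18.8% that rose were below the 38.0%. The site proteases Mbtps1 and Mbtps2, which cut the SREBPs, had log2 fold changes of -0.02 and 0.02 and were not called. Sec24d, a coat protein of vesicles leaving the endoplasmic reticulum, rose from 119 ± 0.598 to 230 ± 4.28 CPM (log2 fold change 0.95, adjusted p = 3.00e-14). Spring1, a factor needed for SREBP cleavage, rose from 17.6 ± 1.25 to 36.3 ± 0.651 CPM (1.05, adjusted p = 2.89e-11). Rnf145, a ubiquitin ligase that responds to sterols, fell from 146 ± 4.98 to 85.9 ± 3.21 CPM (-0.76, adjusted p = 8.97e-12; SD, n = 3 for these genes).

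Of 16 fatty acid synthesis targets of SREBP, all tested, 9 fell, 6 rose and 1 was not called, and the median was -0.39 on the log2 scale. The share that fell was 56.2%, beside 37.1% of all genes, and the share that rose, 37.5%, was near the 38.0% of all genes. Mid1ip1, which activates acetyl-CoA carboxylase, fell from 32.9 ± 1.56 to 12.5 ± 1.41 CPM (SD, n = 3), a log2 fold change of -1.40 (adjusted p = 4.97e-12). Acsl3, an acyl-CoA synthetase, fell by 1.17 (adjusted p = 3.40e-12). Lpin1, a phosphatidate phosphatase, rose by 1.16 (adjusted p = 5.21e-09). The summed level of the list was 2723 to 2817 CPM in Control and 1840 to 1887 CPM in Hdac4-knockdown libraries.

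The 12 LXR receptors, partners and other targets showed 4 rises (33.3%) and 5 falls (41.7%), with a median of -0.05, and both shares were near those of all genes (38.0% and 37.1%). Rxra, the partner receptor of the LXRs, rose by 0.91 (adjusted p = 3.74e-12), and Pltp, a phospholipid transfer protein and LXR target, by 0.74 (adjusted p = 7.06e-11). Lpcat3, a phospholipid-remodelling enzyme and LXR target, fell by 0.72 (adjusted p = 1.18e-09). Of the LXR receptors themselves, Nr1h2 was at 74.5 CPM in Control and 68.2 CPM after knockdown (log2 fold change -0.13, adjusted p = 0.0232), and Nr1h3 was scarce, at 0.426 and 0.238 CPM, and not called.

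Uptake, transport, storage and oxysterol genes were the only list with a positive median beyond 0.1, at 0.41, with 12 of the 20 genes tested higher (60%, beside 38.0% of all genes) and 8 lower (40%, near the 37.1% of all genes). Vldlr, a lipoprotein receptor, rose from 0.729 ± 0.0793 to 28.4 ± 1.15 CPM (SD, n = 3), a log2 fold change of 5.28 (adjusted p = 2.30e-18). Cyp7b1, an enzyme that breaks down oxysterols, had 2, 7 and 9 reads in Control libraries and reached 9.32 ± 0.102 CPM after knockdown (SD, n = 3), a log2 fold change of 5.50 (adjusted p = 4.50e-14). Cav1, the caveolae protein caveolin-1, rose from 284 ± 5 to 753 ± 13.4 CPM (1.40, adjusted p = 2.13e-17).

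**Figure D4:**
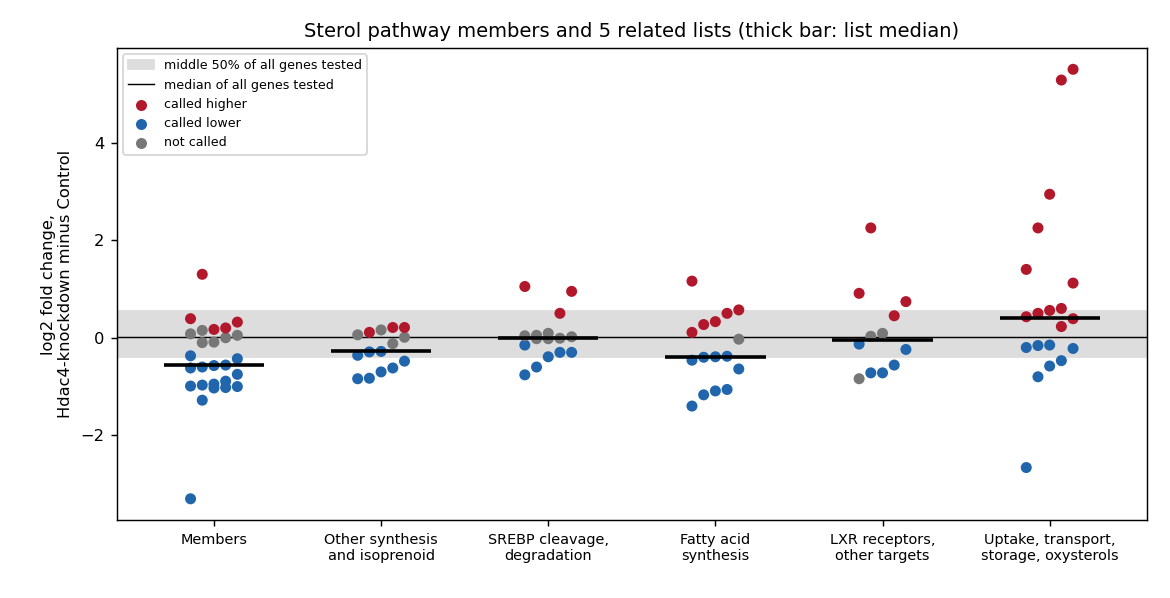
Log2 fold change (Hdac4-knockdown minus Control) of each tested gene among the 27 members and the 5 related lists, colored by call, with the list median as a thick bar and the middle 50% of all genes tested shaded. The member median is -0.56 and that of the fatty acid list -0.39, while the uptake and transport list lies at 0.41.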

How the data were processed

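RNA from MC3T3-E1 cells was sequenced in 6 libraries, 3 per group. The authors deposited raw counts of reads per Ensembl gene, 1 file per library. The submitters' processing notes name STAR 2.7.3a, HTSeq 0.12.4 and the build mm10, while the annotation release, the counting mode and the strand setting are not given in the sources used here. Summary lines for reads not assigned to 1 gene (14.29% to 15.03% of reads) were left out. Symbols, positions and exon lengths came from GENCODE M21 (GRCm38), which held 53706 of 53801 identifiers. Spring1 was matched through its older symbol.

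The groups were tested over all genes in edgeR 4.0.16 under R 4.3.3 (TMM scaling, filterByExpr, quasi-likelihood F test, Benjamini-Hochberg adjustment over 14531 genes, group as the only term), and the listed genes were read from that fit. The same code was also run on counts simulated with known changes, and no result rests on that run. CPM are scaled to the TMM-adjusted library size, and intervals are 95% intervals of the fit. Depth per library was 29096544 to 31651826. Libraries of 1 group differed by 3.23 to 8.36 times the sampling noise (chi-square per degree of freedom), so none was a duplicate. Alternatives were other scalings, filters, DESeq2 1.42.0, limma-voom (limma 3.58.1), the replicate number as a block, higher thresholds and leaving out each library. Promoter windows came from RefSeq (GRCm38.p6). Figures were drawn with matplotlib 3.10.9.

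All 27 members are named, as are, from each related list, up to 3 called genes with the largest change among those with a mean of 100 or more counts and no overlap between groups. Nr1h2, Nr1h3, Mbtps1 and Mbtps2 were named outside that rule, after their values were seen. The members and lists were chosen with earlier results of these data known.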

Additional observations from a re-analysis of the deposited data

Results flagged for a closer look

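Reads that fell outside annotated genes, which no comparison used, made up 4.79% of all reads in the Hdac4-knockdown files on average and 3.28% in the Control files, with values from 4.64% to 5.068% and from 3.169% to 3.409%, so the groups did not overlap. Their part in the sterol gene results was not tested.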

How the results depend on the processing

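The number of sterol genes called lower was 15 to 16 under every other scaling, filter, test and omitted library. The number called higher, 5, was 8 with upper quartile normalization, which added Mvk, Mvd and Stard4, 6 with library size alone, 4 with no filter beyond 1 count, and 3 to 5 when single libraries were left out, with 3 without Hdac4-knockdown replicate 3. Raising the threshold to 0.5 left 1 sterol gene higher and 14 lower, 3579 and 2879 of all genes, and 16 and 17 of the related genes. At a threshold of 1, these numbers were 1 and 4, 2397 and 1543, and 9 and 5. The median log2 fold change of the 27, -0.56, was -0.50 with library size alone, -0.47 with upper quartile normalization, -0.46 with at least 10 counts in every library, where Abcg1 was not tested, and -0.58 to -0.51 with single libraries left out. With no filter beyond 1 count it was -0.59. The median of all genes, 0.0144, also moved, to 0.0712 with library size alone and 0.103 with upper quartile normalization. It was 0.252 with no filter beyond 1 count, where 28015 genes were tested. Of 377 values of single sterol genes under 14 alternatives, 358 kept their direction and call, 6 lost the call (Lss and Sc5d, given above), 4 gained it and 9 turned sign. Those that turned were not called in either setting. Scap went to 0.00 with DESeq2 size factors and with DESeq2, 0.06 with library size alone, 0.09 with upper quartile normalization and 0.04 with at least 10 counts in every library, and ran from -0.03 to 0.04 with single libraries left out, at 0.00 without Hdac4-knockdown replicate 1. Dhcr7 went to 0.00 with upper quartile normalization and Pmvk ran from -0.24 to 0.03 with single libraries left out, the latter without Control replicate 1. The cause was not tested.

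With the replicate number as a block, 5 sterol genes rose and 16 fell, as without it, and 5523 and 5441 of all genes did. Same-numbered libraries showed no common deviation (correlations across genes of -0.0111, 0.0270 and 0.0166), and not every library correlated best with its own number. Depth limits Fdps and Abcg1, with 14 to 41 and 8 to 99 reads per library.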
